A study of Mus musculus with 2 samples.

Results

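Mpo, Elane, Prtn3, Ctsg and Ms4a3, named after the azurophil granule of neutrophils, were taken by gene symbol from the feature table, and all 5 were found among its 32285 features. Their unique molecular identifiers (UMIs, each standing for a single captured RNA molecule) were counted in each cell, cell class and library. The cells came from C57BL/6 mice with a calvarial defect, a hole made in the flat bone of the skull roof, and there were 2 single-cell RNA libraries. One library, GA, came from mice given 100 µL of gambogic amide intraperitoneally, at 1.2 mg/kg in 10% DMSO by the sample labels (the study's text states another dose), a compound used here to activate TrkA, the receptor of nerve growth factor. The other, control, came from mice given vehicle with 10% DMSO. Injections began 24 h before the injury in both groups and went on daily for 1 week. By the sample records, bone within about 3 mm of the defect was taken at day 7, digested with collagenase and freed of red cells. The study's text instead describes a round piece of bone 3 mm across, centred on the defect. By the study's methods the mice were adult males pooled within each group, so each condition is 1 library, no value below has a replicate check, and no test between conditions was possible. The study listed Prtn3, Ctsg and Mpo among its own leading genes from these same cells, so their direction over all cells is not independent evidence here.

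Azurophil or primary granules are the earliest granules of the neutrophil and are filled at the promyelocyte stage, after which transcription of their contents stops and the packed proteins are carried into the mature cell. Elane, Prtn3 and Ctsg encode the serine proteases neutrophil elastase, proteinase 3 and cathepsin G, which are made as inactive forms and trimmed by cathepsin C. Mpo encodes myeloperoxidase, a haem enzyme that makes hypochlorous acid from hydrogen peroxide and chloride. Ms4a3 encodes a membrane-spanning protein of the MS4A family that marks granulocyte-monocyte progenitors; it is not a granule content, so the name fits 4 of the 5 genes.

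The files held 9322 barcodes and 182949385 UMIs for GA and 8718 barcodes and 214993030 UMIs for control. After limits on UMIs, genes, mitochondrial share and doublets, 8376 and 7555 cells remained, with medians of 10929.5 and 16336 UMIs. The libraries shared 23 barcodes, of which 19 were among the kept cells. Clusters were formed without the 5 genes and without the other azurophil contents and neighbour genes examined below, and each was called "-like" from other markers. Mesenchymal-like cells made up 9.46% of GA cells and 22.2% of control cells, so the bone tissue was present in both. The early stages comprised 114 and 53 early progenitor-like cells, 180 and 64 promyelocyte-like cells, and 2 clusters of dividing neutrophil precursors. The first dividing cluster held 111 and 51 cells and the second 256 and 135, the second having the higher Ltf, which encodes the lactoferrin of the later granules, at 8145.5 CPM in GA and 7991 in control against 1560 and 966. CPM is the number of UMIs of a gene per 1000000 UMIs of the class. Because 3′ tags give each transcript the same weight whatever its length, CPM was not divided by gene length.

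Prtn3 and Elane lie side by side on mouse chromosome 10, whereas the other 3 genes lie on 3 other chromosomes. In the mm10 build with GENCODE vM21 annotation, Prtn3 occupies chr10:79874476-79883174 on the plus strand, and Elane follows on the same strand at chr10:79886247-79888215, 3072 bases beyond it. Mpo lies at chr11:87793581-87804413 on the plus strand and is 2015 bases from Lpo, which encodes lactoperoxidase. Ctsg lies at chr14:56099881-56102574 on the minus strand, 14608 bases from Mcpt8, a basophil protease. Ms4a3 lies at chr19:11629496-11640851 on the minus strand, 5777 bases from Ms4a2, the beta chain of the high-affinity IgE receptor. The longest transcript of Mpo has 14 exons and that of each of the other 4 genes has 5. Prtn3 overlaps Plppr3 on the opposite strand and Mpo overlaps Gm11505, and how the counting used strand is not given in the sources used here, so reads of an overlapping pair may not be told apart.

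Each gene's promoter is shown because all 5 genes rise in the same cells. The 250 bases before the transcription start come from RefSeq (GRCm38.p6, the patch level of the same build), 5′ to 3′ on the gene's own strand, and capitals mark GGAAGT, letters that PU.1 and other ETS factors can bind. The RefSeq starts differ from the GENCODE gene bounds given above for Mpo, Elane and Prtn3. The windows are chr11:87793534-87793783 (plus) for Mpo, chr10:79886062-79886311 (plus) for Elane, chr10:79879417-79879666 (plus) for Prtn3, chr14:56102575-56102824 (minus) for Ctsg and chr19:11640852-11641101 (minus) for Ms4a3.
Mpo: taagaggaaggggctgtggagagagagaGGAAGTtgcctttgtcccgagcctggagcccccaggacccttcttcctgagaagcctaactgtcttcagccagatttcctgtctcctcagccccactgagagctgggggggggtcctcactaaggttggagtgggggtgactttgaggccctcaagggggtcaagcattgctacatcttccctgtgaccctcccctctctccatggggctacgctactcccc
Elane: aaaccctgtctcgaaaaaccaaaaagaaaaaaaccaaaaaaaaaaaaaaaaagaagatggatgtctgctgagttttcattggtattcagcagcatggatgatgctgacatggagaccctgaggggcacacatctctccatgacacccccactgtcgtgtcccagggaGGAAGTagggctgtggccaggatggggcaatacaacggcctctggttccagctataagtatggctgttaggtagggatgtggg
Prtn3: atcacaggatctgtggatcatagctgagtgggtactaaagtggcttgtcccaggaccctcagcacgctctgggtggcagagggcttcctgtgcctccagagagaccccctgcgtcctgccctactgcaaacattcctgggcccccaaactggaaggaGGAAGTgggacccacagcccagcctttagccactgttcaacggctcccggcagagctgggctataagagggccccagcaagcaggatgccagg
Ctsg: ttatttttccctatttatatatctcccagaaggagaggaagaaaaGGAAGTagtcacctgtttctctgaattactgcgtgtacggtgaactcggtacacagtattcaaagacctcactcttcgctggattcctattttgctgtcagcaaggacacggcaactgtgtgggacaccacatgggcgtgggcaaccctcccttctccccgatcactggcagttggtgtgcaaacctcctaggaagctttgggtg
Ms4a3: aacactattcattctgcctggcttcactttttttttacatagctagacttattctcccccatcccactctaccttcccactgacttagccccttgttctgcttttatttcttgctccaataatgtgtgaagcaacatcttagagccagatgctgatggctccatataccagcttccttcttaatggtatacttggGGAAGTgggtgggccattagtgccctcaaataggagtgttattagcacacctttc

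GGAAGT was found on the promoter strand in 5 of 5 windows, at 222 bases before the start in Mpo, 83 in Elane, 93 in Prtn3, 205 in Ctsg and 55 in Ms4a3, and occurs on either strand in 19.7% of 32851 mouse promoter windows of that length. These letters were chosen after the 5 sequences had been read, so the count is a description only. Of the other motifs searched on both strands, the Myb letters AACNG were in 4 of 5 windows against 74.2% of all windows. The C/EBP letters TTNCNNAA were in 1 of 5 (Ms4a3, where they overlap GGAAGT) against 36.8%, and the RUNX letters TGTGGT were in 1 of 5 (Ctsg) against 14.05%. A match is not a binding site, and the absence of a match says only that these letters are not in the window.

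All 5 genes were highest in promyelocyte-like cells in both libraries. In GA these cells held Mpo at 5271 CPM, Elane at 7244, Prtn3 at 9707, Ctsg at 5445 and Ms4a3 at 1284. In control they held 5959, 13191, 10991.5, 5911 and 1672 CPM. The 5 genes together gave 2.90% of every UMI in promyelocyte-like cells of GA and 3.77% in control, and a single cell carried a median of 1662 and 1367.5 of their UMIs. All 5 were found in the same cell in 178 of 180 GA cells and 64 of 64 control cells, each cell having 1 or more UMIs of each gene. The 95% Poisson intervals around these CPM values were narrow, for example 5226 to 5315 for Mpo in GA and 5860 to 6059 in control. Intervals in this text, exact Poisson for CPM, Clopper-Pearson for shares and conditional binomial for ratios, cover counting error only.

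**Figure D1:**
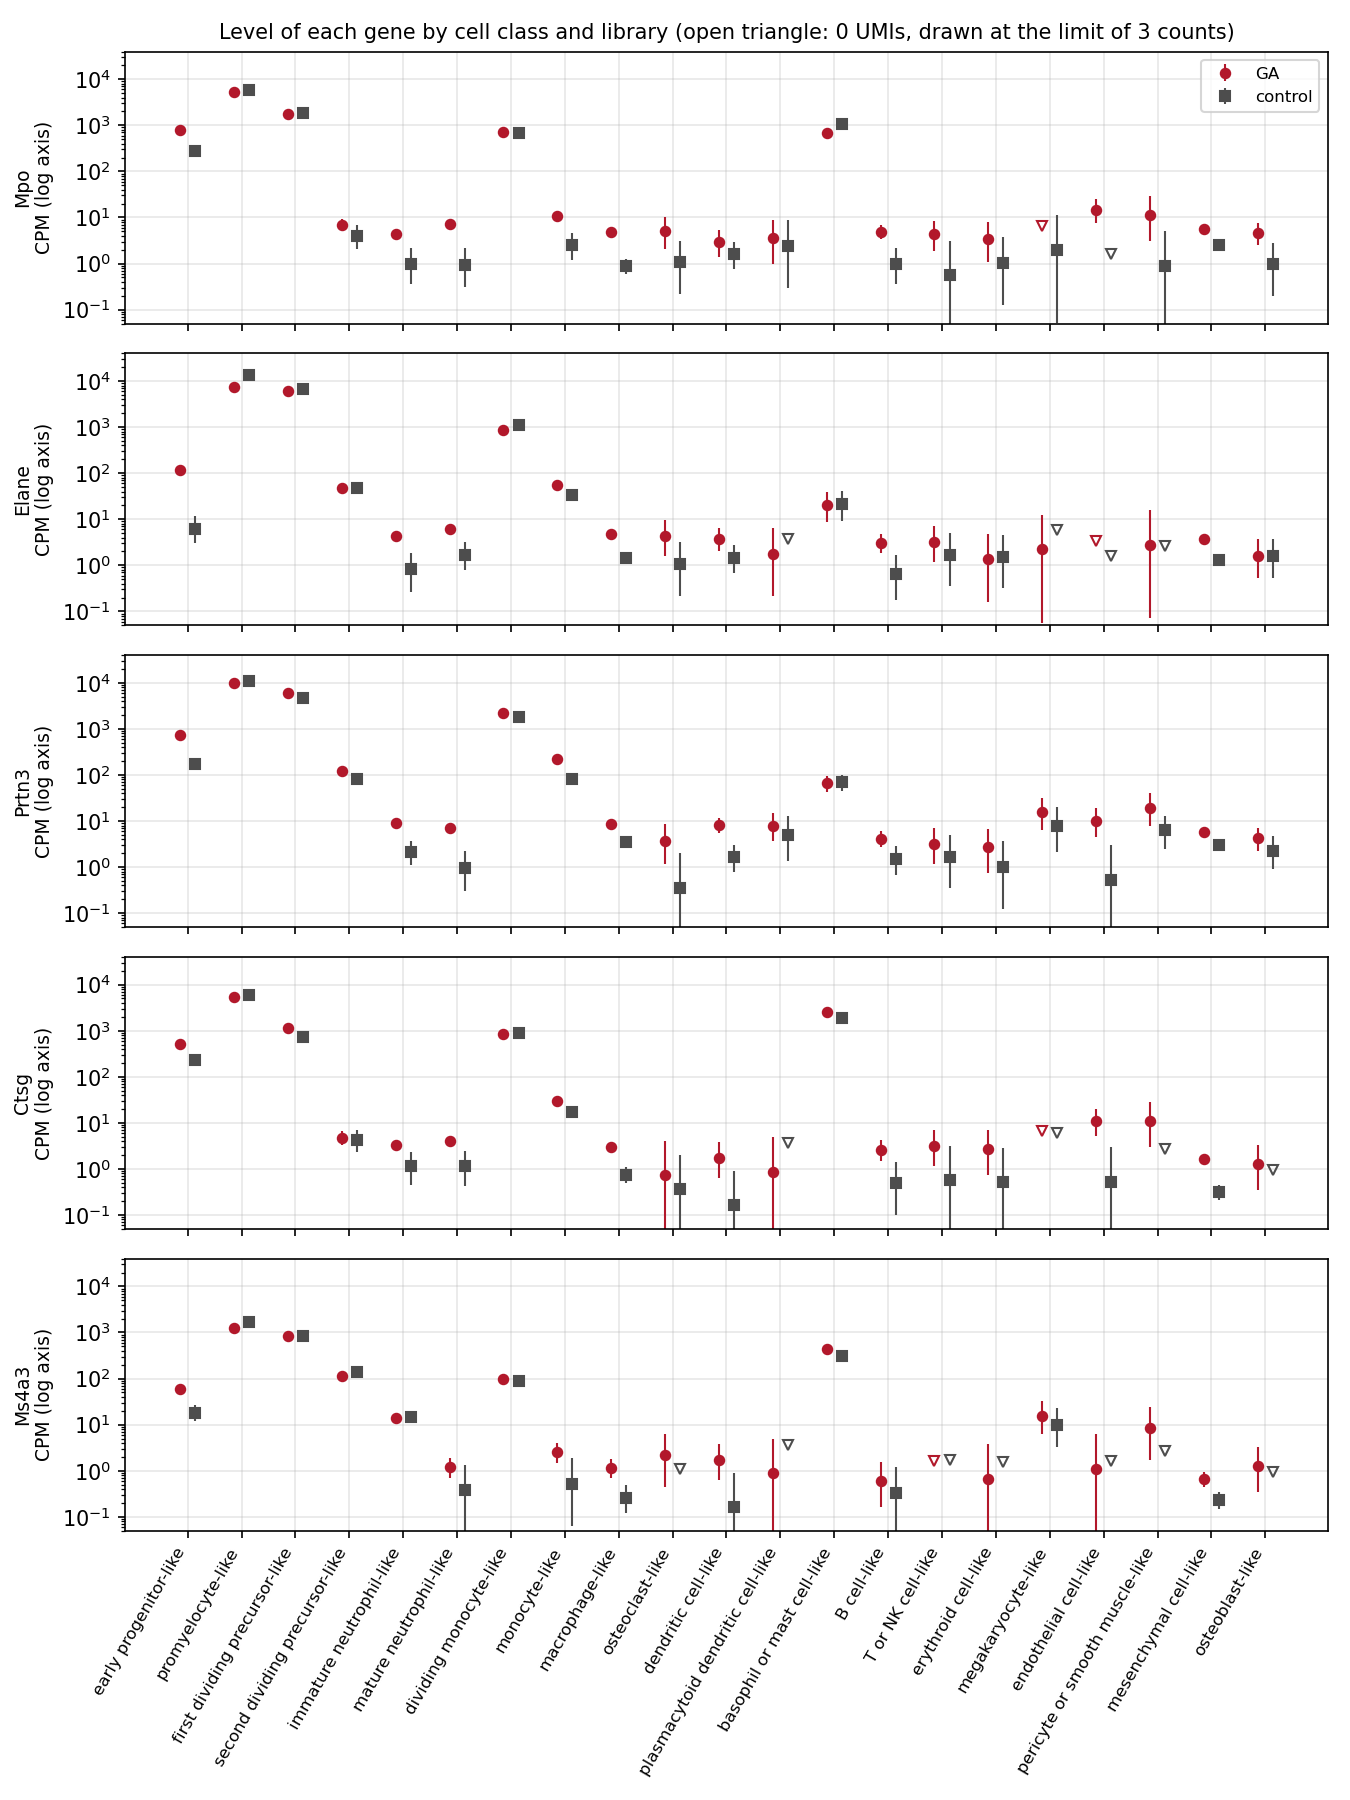
Level of each gene (CPM, log axis) by cell class in the GA and control libraries, with exact 95% Poisson intervals that cover counting error only. Promyelocyte-like cells hold the highest point for all 5 genes, from 1284 CPM for Ms4a3 to 9707 for Prtn3 in GA, while mature neutrophil-like cells sit at 7.20 CPM or less.

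The cells that held these transcripts were few. Promyelocyte-like cells were 2.15% of GA cells and 0.847% of control cells, yet they held 73.4% (73.1 to 73.7%) and 68.8% (68.2 to 69.5%) of all Mpo UMIs, 66.6% and 68.2% of Elane, 64.5% and 64.5% of Prtn3, 76.4% and 73.2% of Ctsg, and 67.3% and 62.1% of Ms4a3. Early progenitor-, promyelocyte- and dividing precursor-like cells with dividing monocyte-like cells were 10.3% of GA cells and 5.14% of control cells. Together they held between 95.2% (Ctsg in control) and 99.1% (Elane in control) of each gene's UMIs. Immature and mature neutrophil-like cells, the most numerous stages at 49.0% and 25.4% of cells, held 0.248% and 0.0548% of Mpo and between 0.0312% and 0.171% of Elane, Prtn3 and Ctsg. Ms4a3 was the exception among the 5, with 1.39% and 1.49% of its UMIs in those cells.

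The 5 genes did not stand at like levels in the earliest stage. Stages here are sets of cells named by markers at day 7, so an order of stages is not a measured order in time. Early progenitor-like cells held the lymphoid progenitor genes Dntt at 311 CPM in GA and 270 in control and Flt3 at 206 and 230. They are therefore not read as cells of the neutrophil side alone. In early progenitor-like cells, which carry the stem and progenitor gene Kit at 114.5 CPM in GA and 132 in control, Mpo, Prtn3 and Ctsg were already present while Elane and Ms4a3 were low. GA values were 778 CPM for Mpo, 725 for Prtn3 and 516 for Ctsg, against 115 for Elane and 58.9 for Ms4a3. Control values were 275, 173 and 231 CPM against 6.27 for Elane and 18.2 for Ms4a3. Ms4a3 also had the lowest peak of the 5 genes, 1284 CPM in GA and 1672 in control promyelocyte-like cells. A later start is therefore not read from its low level here. Of the UMIs of the 5 genes in these cells, Mpo made up 35.5% in GA and 39.1% in control, and Elane 5.24% and 0.892%. In promyelocyte-like cells the Mpo share was 18.2% and 15.8% and the Elane share 25.02% and 34.97%. In the first dividing cluster Elane reached 38.0% and 44.8% and Ctsg fell to 7.21% and 4.97%. These shares describe which of the 5 transcripts dominated each stage and do not depend on how many cells the stage had.

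**Figure D2:**
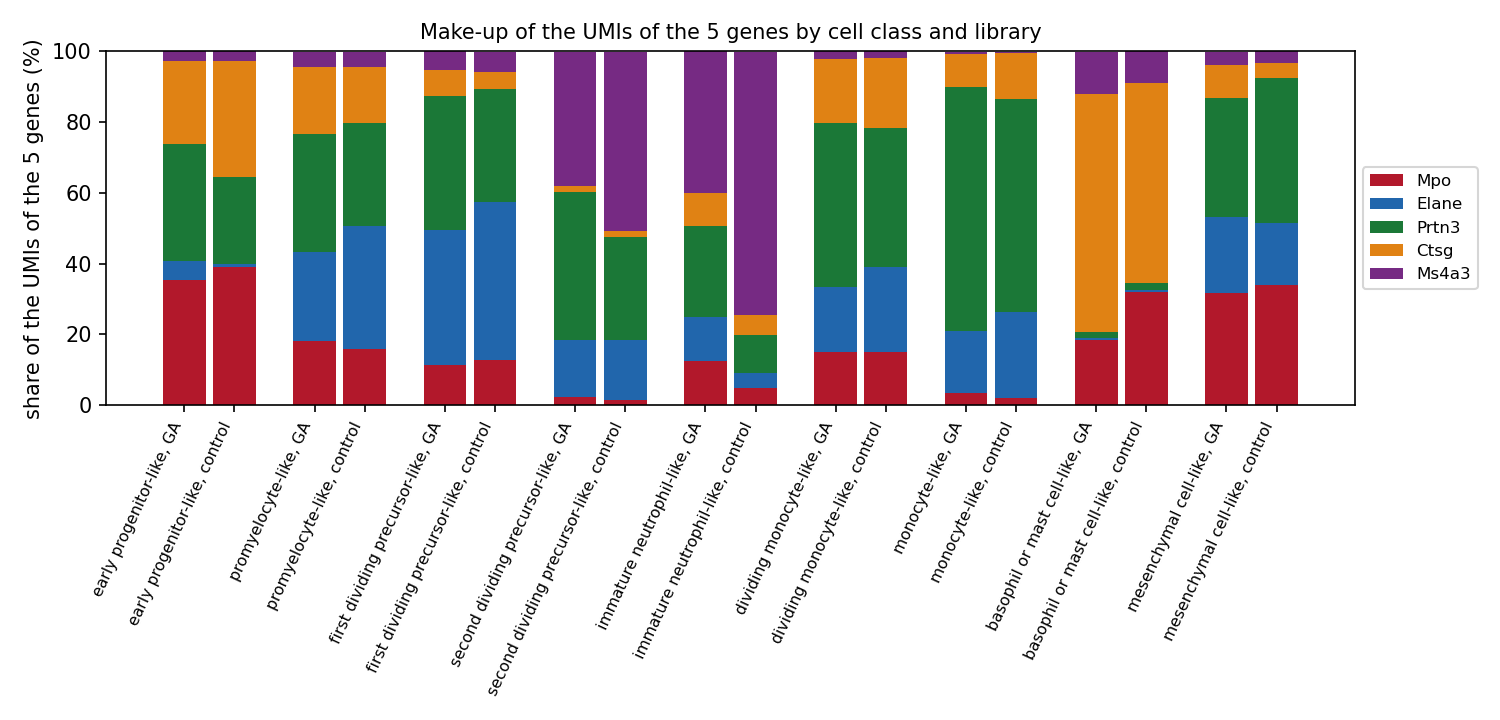
Share of each gene in the summed UMIs of the 5 genes (percent, stacked bars that start at 0) by stage and library. Mpo leads in early progenitor-like cells (35.5% in GA, 39.1% in control), Elane and Prtn3 lead from the promyelocyte stage to the first dividing cluster, and Ms4a3 makes up 38.1% and 50.9% in the second dividing cluster.

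Reclustering the 865 GA and 388 control early cells gave a finer order. The cluster with the most Kit, with Pf4, Meis1 and Mecom among its leading genes, held Elane at 140 CPM in GA and 6.75 in control beside Mpo at 826 and 188. A cluster led by Dntt and Flt3, genes of lymphoid progenitors, carried Mpo at 405 CPM in GA and 406 in control and Prtn3 at 524 and 259. Its Elane stood at 11.5 and 5.01 CPM. Among promyelocyte-like cells, a cluster led by Fkbp11, Srm and Calr, which serve protein folding and synthesis, held Mpo at 4599 and 4536 CPM but Elane at 3641 and 6282. The cluster led by Vcam1, Nkg7 and Prss57 was the peak of all 5 genes. There Elane was at 13209 CPM in GA and 16643 in control, Prtn3 at 15100 and 13076, Ctsg at 7512 and 5655, Mpo at 5958 and 6172 and Ms4a3 at 1958 and 1976. From the Fkbp11 cluster to this peak Elane was higher by more than any other of the 5 in GA, while Mpo differed least in GA and Ctsg least in control. Finer clusters are placed here by the stage most of their cells came from, and their own markers did not always give that name. The Fkbp11 cluster got no name, and the Dntt cluster was named plasmacytoid dendritic cell-like. Within the second dividing cluster, the finer clusters led by Mmp9 and by Stfa1 were named immature neutrophil-like, and the one led by Krt81 got no name.

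**Figure D3:**
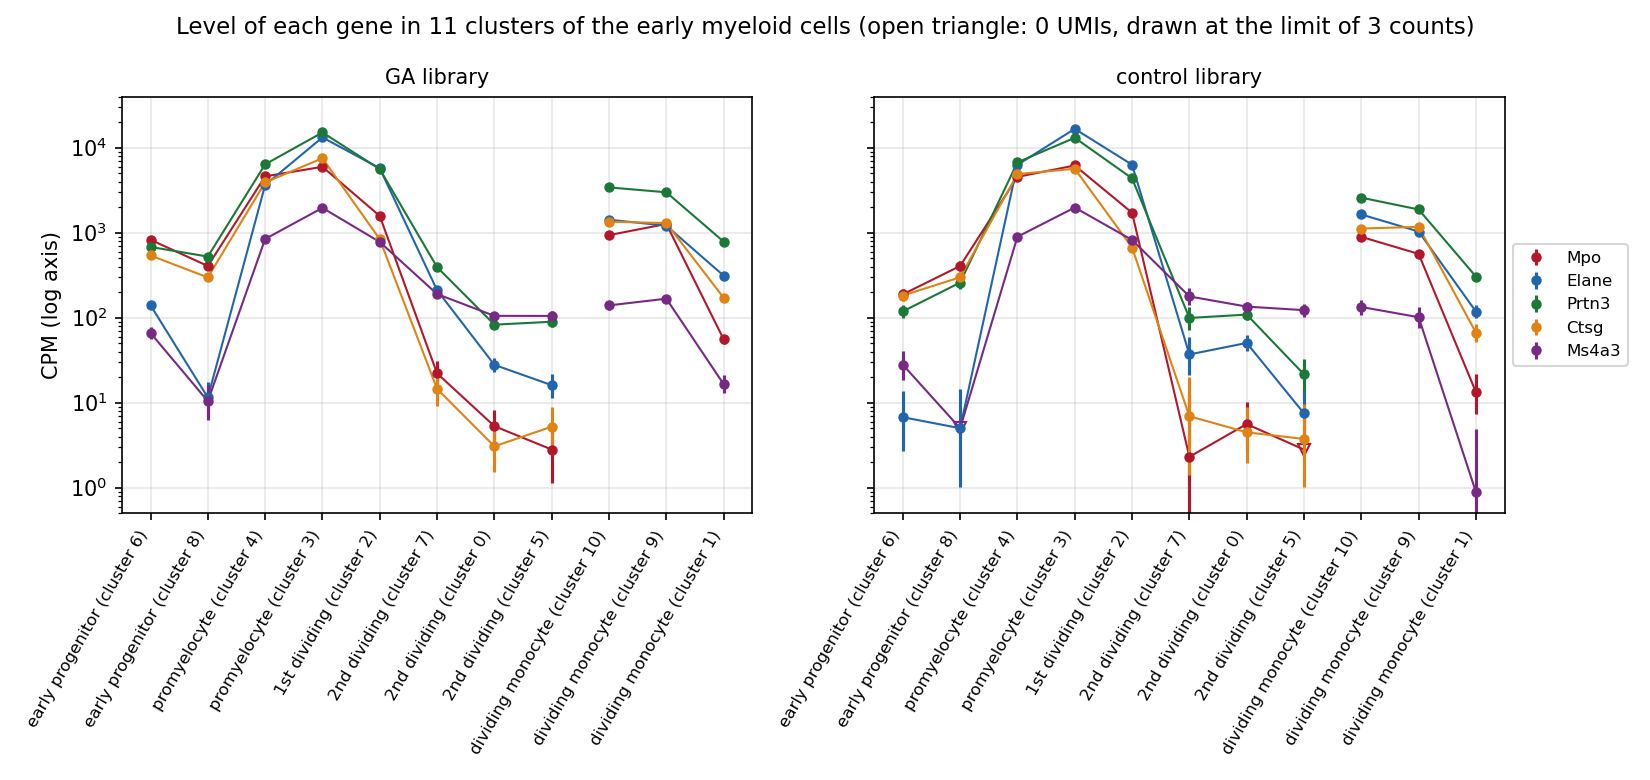
Level of each gene (CPM, log axis) in the reclustered early cells, ordered from progenitor clusters through the promyelocyte-like clusters to the dividing precursor clusters, with the monocyte-side clusters last and exact 95% Poisson intervals. Open triangles mark clusters with no UMI and are drawn at the limit that 3 counts would give. Every gene peaks in the cluster led by Vcam1 and Nkg7 (cluster 3), and Ms4a3 stays near 105 CPM in GA where Mpo is at 5.30 CPM.

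With the clusters taken in stage order, Ctsg and Mpo were the first to be low, Elane and Prtn3 next, and Ms4a3 last. Between promyelocyte-like cells and the first dividing cluster, whose Camp (the antimicrobial cathelicidin) stood at 34443 CPM in GA and 47348 in control, Ctsg went from 5445 to 1130 CPM in GA and from 5911 to 735 in control. Mpo went from 5271 to 1780 and from 5959 to 1874, whereas Elane was still at 5959 and 6631 and Prtn3 at 5964 and 4701. In the second dividing cluster Mpo and Ctsg were at 6.86 and 4.81 CPM in GA and 3.92 and 4.23 in control. Elane was at 47.5 and 47.4 CPM, Prtn3 at 124 and 81.5, and Ms4a3 at 113 and 142. The share of cells with Ms4a3 was still 75.8% and 75.6% in that cluster, against 10.5% and 8.15% for Mpo.

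Ms4a3 was also the gene of the 5 that could be followed furthest. In immature neutrophil-like cells it stood at 13.9 CPM (12.3 to 15.7) in GA and 14.8 (11.9 to 18.2) in control, and those intervals overlap. Within that stage it was held by the 3 clusters with the most Camp and the least Mmp8 (neutrophil collagenase). These clusters carried 24.2, 31.4 and 37.0 CPM in GA and 16.0, 46.8 and 25.9 in control. The 4 clusters with more Mmp8 carried between 0 and 1.59 CPM in both libraries. In mature neutrophil-like cells Ms4a3 was at 1.18 CPM in GA, from 17 UMIs, and at 0.378 in control, from 2 UMIs.

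Monocyte-side cells kept Prtn3 above the other 4 genes. In dividing monocyte-like cells, whose F13a1 (coagulation factor XIII A chain, a monocyte gene) was at 1301 and 1499 CPM, Prtn3 was at 2176 CPM in GA and 1801 in control. Elane was at 857 and 1100, Ctsg at 854 and 897, Mpo at 703 and 692 and Ms4a3 at 99.1 and 89.1. All 5 genes were found together in 92 of 204 GA cells and 32 of 85 control cells. In monocyte-like cells Prtn3 remained at 217 CPM and 82.2 and made up 68.8% and 60.3% of the UMIs of the 5 genes, while Mpo was at 10.7 and 2.55 CPM. Over the 3 dividing monocyte clusters Prtn3 ran from 3410 CPM in the cluster led by Klf4 and Irf8 to 784 in the one led by Fn1 and Cd86 in GA, and from 2582 to 305 in control.

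Basophil or mast cell-like cells carried a different set. Ctsg led at 2487 CPM in GA and 1910 in control, followed by Mpo at 680 and 1081 and Ms4a3 at 449 and 304, whereas Elane was at 20.3 and 21.3 and Prtn3 at 66.0 and 69.3. The 35 and 36 cells were split by 100 UMIs of Mcpt8 and Prss34, basophil proteases, and by 20 UMIs of Cma1, Mcpt4 and Tpsb2, mast cell proteases, with 9 cells within a factor of 2 of the basophil limit. The 20 GA and 15 control cells rich in Mcpt8 and Prss34 held Ctsg at 3298 and 3014 CPM, Mpo at 911 and 1712 and Ms4a3 at 597 and 468. Ctsg was found in 20 of 20 and 15 of 15 of them. The 1 GA and 8 control cells with mast cell proteases held 0 UMIs of all 5 genes, which allows a level of up to 42.7 CPM in control at 3 counts. Of the 4 genes other than Ctsg, the cells in neither set held 4 UMIs in GA and 3 in control.

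The order of the classes after the promyelocyte-like cells was not the same for the 5 genes. For Mpo the first dividing cluster came next in both libraries, and then basophil or mast cell-like, dividing monocyte-like and early progenitor-like cells, whose order differed between the libraries. In GA early progenitor-like cells, at 778 CPM (752 to 804), stood above dividing monocyte-like cells at 703 (687 to 720), and in control they were the lowest of the 3 at 275. For Elane and Prtn3 the order was the first dividing cluster, then dividing monocyte-like cells, with intervals apart in both libraries. Ctsg had basophil or mast cell-like cells in second place, above the first dividing cluster. Ms4a3 had the first dividing cluster, basophil or mast cell-like cells and the second dividing cluster in that order. The lowest class that stood above the next in both libraries, with intervals apart, was early progenitor-like for Mpo, basophil or mast cell-like for Elane and Prtn3, monocyte-like for Ctsg and dividing monocyte-like for Ms4a3.

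Transcripts of the 5 genes were also found at a low level throughout both libraries, higher in GA. Mesenchymal-like cells, which should lack these transcripts, held Prtn3 at 5.81 CPM in GA and 3.02 in control, Mpo at 5.50 and 2.50, Elane at 3.73 and 1.30, Ctsg at 1.63 and 0.317 and Ms4a3 at 0.656 and 0.232. At medians of 52425.5 and 51739 UMIs per cell, 25.6% of mesenchymal-like cells in GA and 12.6% in control had a Prtn3 UMI. Thinned to 2000 UMIs per cell, with cells of fewer UMIs left out, the shares were 1.26% and 0.358%. Mature neutrophil-like cells had medians of 5463.5 and 4010 UMIs. Their Prtn3 stood at 6.93 CPM in GA and 0.944 in control, with a UMI in 3.74% and 0.406% of cells, or 1.41% and 0.166% after thinning. Those thinned shares had overlapping intervals with the mesenchymal-like ones, 0.981 to 1.95% against 0.607 to 2.31% in GA and 0.0201 to 0.597% against 0.131 to 0.777% in control. In GA, Elane at 6.23 CPM (5.01 to 7.66) and Ctsg at 4.02 (3.05 to 5.19) in mature neutrophil-like cells stood above mesenchymal-like cells. The intervals there were 3.18 to 4.35 for Elane and 1.27 to 2.05 for Ctsg, while those of Mpo, Prtn3 and Ms4a3 overlapped between the 2 classes. Free RNA gives UMIs to cells that do not express a gene. Its part in these levels was not tested, so no expression is read from the transcripts in mature neutrophil-like cells.

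A small unnamed cluster also held the 5 genes. It was led by Tagln and Acta2, smooth muscle genes, its cells had medians of 2747 UMIs in GA and 1756 in control, and no class name could be given to it. Its 13 GA cells held 661 Prtn3 UMIs, of which 583 lay in the 3 cells with most. Its 115 control cells held 83, all in 2 cells.

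Over all kept cells each of the 5 genes was more abundant in GA. Mpo stood at 464 CPM in GA and 109 in control, Elane at 703 and 243, Prtn3 at 974 and 214, Ctsg at 461 and 101 and Ms4a3 at 123 and 33.8. The log2 ratios of GA to control were 2.09, 1.53, 2.18, 2.18 and 1.87. All 5 passed a log2 ratio of 1, as did 3.17% of the 15318 genes with at least 200 UMIs in the kept cells, while 10.1% passed it in either direction and the median gene stood at -0.08. Cells with at least 2000 UMIs were also thinned to 2000, which gives each the same weight, and cells with fewer were left out. The median over the 5 genes was then 1.10 in place of 2.09, and Elane was at 0.69. Without the early progenitor-, promyelocyte-, dividing precursor- and dividing monocyte-like cells, the rest of each library still had log2 ratios of 1.11 for Mpo, 2.22 for Elane, 2.23 for Prtn3, 1.35 for Ctsg and 1.73 for Ms4a3, at levels between 5.03 and 24.7 CPM in GA. These UMIs were not spread evenly. The unnamed cluster led by Tagln held 523 of 1416 Elane UMIs in GA and 71 of 425 in control. Monocyte-like cells held 1559 of 3056 Prtn3 UMIs and 322 of 907. Basophil or mast cell-like cells held 980 of 1647 Ctsg UMIs and 717 of 901.

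The cells that hold these transcripts took a larger share of GA. Promyelocyte-like cells were 2.15% of GA cells (1.85 to 2.48%) and 0.847% of control cells (0.653 to 1.08%), a ratio of 2.54 (1.91 to 3.37). The ratio was 1.94 (1.40 to 2.68) for early progenitor-like cells, 1.96 (1.41 to 2.73) for the first dividing cluster, 1.71 (1.39 to 2.10) for the second and 2.16 (1.68 to 2.78) for dividing monocyte-like cells. All stages from early progenitor to mature neutrophil together made up 56.9% of GA and 29.4% of control cells, a ratio of 1.93. Within the reclustered myeloid lineage the promyelocyte-like ratio was 1.31 and the early progenitor-like ratio 1.00. The promyelocyte-like ratio was 1.49 when predicted doublets were kept and 1.74 when the granule genes took part in clustering. GA promyelocyte-like cells also had more UMIs per cell, a median of 53497.5 against 36256.5 in control. Mesenchymal-like cells took the reverse course, 9.46% of GA and 22.2% of control cells, a ratio of 0.426, and their part in these shares was not tested.

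Within promyelocyte-like cells the 5 genes were not higher in GA. The log2 ratios were -0.18 for Mpo, -0.86 for Elane, -0.18 for Prtn3, -0.12 for Ctsg and -0.38 for Ms4a3, while the median of 6314 genes stood at 0.12. None of the 5 passed a log2 ratio of 1 in either direction, which 1.52% of genes did. Elane had the lowest ratio of the 5, and 1.09% of the tested genes were lower still. The UMIs per cell gave another order. The median UMI number was 272 in GA and 220.5 in control for Mpo, 418 and 483.5 for Elane, 540.5 and 393.5 for Prtn3, 305.5 and 200 for Ctsg and 72.5 and 62 for Ms4a3. Elane alone of the 5 had fewer UMIs in the median GA cell, while CPM is set against the larger total of UMIs of the GA cells. The direction held for Elane in all 12 other ways of processing, from -0.98 to -0.33, and the median over the 5 genes ran from -0.30 to 0.04. In the clustering of all cells, the cluster named promyelocyte-like held 0 GA and 63 control cells. A cluster of 368 GA and 93 control cells scored highest for promyelocyte markers but was named monocyte-like. The stage compared here was formed only on reclustering, and whether the 2 libraries hold the same mix of cells in it was not tested.

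**Figure D4:**
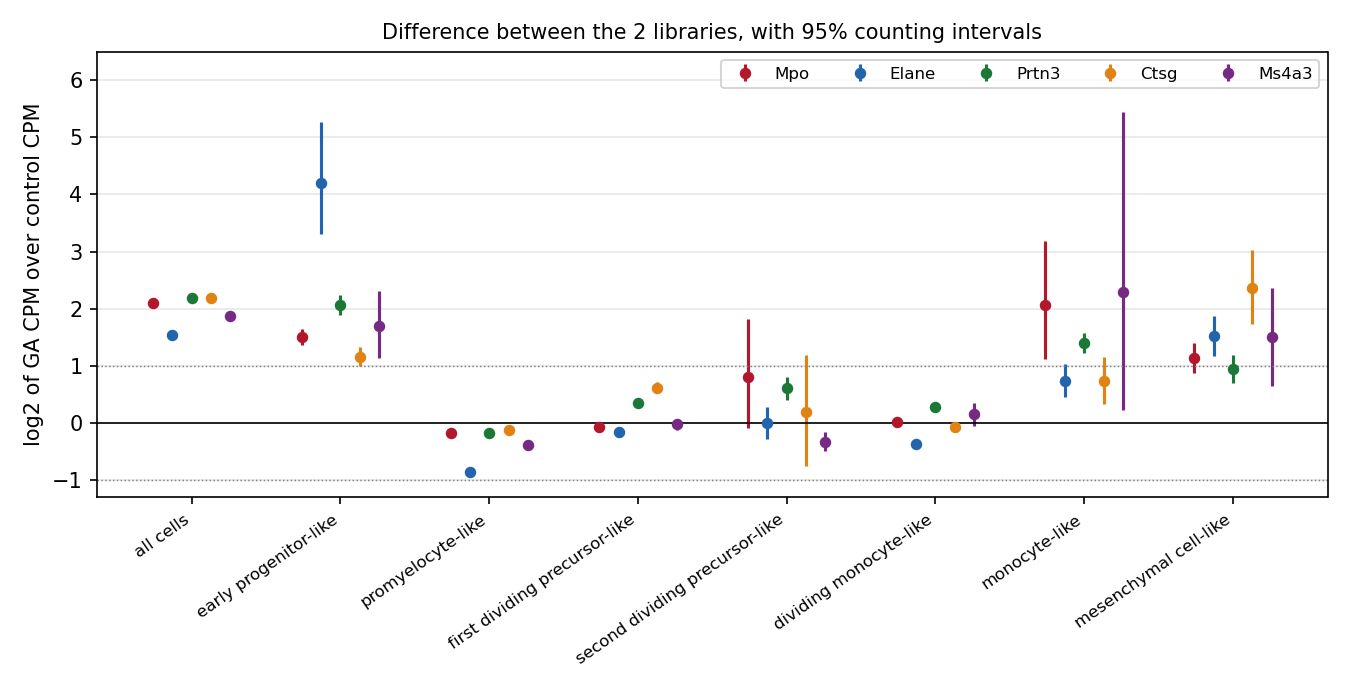
Log2 ratio of GA to control CPM for each gene over all cells and by cell class, with conditional binomial 95% intervals that cover counting error only; dotted lines mark log2 ratios of 1 and -1. Early progenitor-like cells lie between 1.16 (Ctsg) and 4.20 (Elane), promyelocyte-like cells between -0.86 (Elane) and -0.12 (Ctsg).

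The 2 promyelocyte-like clusters differed in which of the 5 genes were lower. In the cluster led by Vcam1 and Nkg7, which held 95 GA and 45 control cells, the log2 ratios were -0.33 for Elane, -0.05 for Mpo, -0.01 for Ms4a3, 0.21 for Prtn3 and 0.41 for Ctsg. In the cluster led by Fkbp11 and Srm, with 108 GA and 31 control cells, they were -0.79 for Elane, -0.32 for Ctsg, -0.09 for Ms4a3, -0.08 for Prtn3 and 0.02 for Mpo. The Fkbp11 cluster, where Elane is lower in both libraries, made up 12.5% (10.4 to 14.9%) of the early cells in GA and 7.99% (5.49 to 11.1%) in control. The Vcam1 cluster made up 10.98% and 11.6%. The intervals of both shares overlap between libraries, which does not show that the shares are equal. Elane was lower in GA in each of the clusters, but by less than over the whole stage, where its ratio was -0.86. The part of the cluster mix in that ratio was not tested.

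Early progenitor-like cells showed the opposite direction. All 5 genes passed a log2 ratio of 1, at 1.50 (1.36 to 1.65) for Mpo, 4.20 (3.30 to 5.26) for Elane, 2.07 (1.89 to 2.25) for Prtn3, 1.16 (1.00 to 1.32) for Ctsg and 1.70 (1.14 to 2.30) for Ms4a3, as did 0.648% of 4937 genes. Without Harmony Mpo was at 0.93 and Ctsg at 0.86, and thinned to 2000 UMIs per cell Ms4a3 was at 0.065, so these 3 no longer passed 1. The control side rested on 53 cells with 10 Elane UMIs and 29 Ms4a3 UMIs. In GA 25.4% of the cells had an Elane UMI and 14.9% had all 5 genes, against 5.66% and 1.89% in control, at medians of 38418 and 24789 UMIs per cell. Thinned to 2000 UMIs per cell, Elane was found in 7.89% (3.67 to 14.5%) of GA cells and 0 of 53 control cells (up to 6.72%). In mesenchymal-like cells an Elane UMI was found in 18.4% of GA and 6.85% of control cells, or 1.77% and 0.238% after thinning. By CPM the control level, 6.27 (3.01 to 11.5) from 10 UMIs in 3 cells, lay above the 1.30 (1.08 to 1.55) of mesenchymal-like cells, so no order is read from the unthinned shares. UMIs were unevenly spread, since the median GA cell had 2.5 Mpo UMIs and the highest 246, and the median control cell 1 and the highest 77. In the Pf4 cluster the ratios were 2.13 for Mpo, 4.38 for Elane, 2.52 for Prtn3, 1.56 for Ctsg and 1.24 for Ms4a3. The cells of that cluster also differed in other genes: Pf4, a megakaryocyte gene, was at 229 CPM in GA and 1634 in control, Gata2 at 79.4 and 131 and Dntt at 145 and 24.1, and their part in the ratios was not tested. In the Dntt cluster Mpo and Ctsg were at -0.0013 and -0.0049, and Prtn3 was at 1.02. Without the 5 cells that held most UMIs of a gene in each library, the median over the 5 genes was 2.60 in place of 1.70. Elane then ranked highest, but its control UMIs lay in 3 cells, so this step had to leave control with 0 of them. The 5 cells were also a larger part of the 53 control cells than of the 114 GA cells. The value of 2.60 is therefore not a check of the ratio. Genes of later stages were examined beside them. All 9 specific and gelatinase granule genes with at least 20 UMIs (12 were listed) had log2 ratios past 1, Mmp8 with 0 control UMIs, but several were at or below the level of mesenchymal-like cells. Only 1 of them had at least 200 UMIs, the limit for the 4937 genes above. The share of all genes past 1 from 20 UMIs is not given for this stage, so the count is a description only. Camp stood at 25.9 CPM in GA and 6.90 in control against 80.7 and 13.4 in mesenchymal-like cells, and a Camp UMI was found in 60.5% and 17.0% of early progenitor-like against 76.0% and 44.8% of mesenchymal-like cells. Ltf stood at 13.7 and 3.76 CPM against 39.8 and 4.95, and Lcn2, which encodes lipocalin 2, at 29.2 and 2.51 against 63.1 and 5.97. No expression is read from these 3 genes here, and the source of their UMIs was not tested. Hp, haptoglobin, was at 26.5 and 3.14 CPM against 17.6 and 13.4. The 12 markers of immature neutrophils summed to 179 CPM in GA and 55.2 in control, against 373 and 68.6 in mesenchymal-like cells, and the 12 of mature neutrophils to 696 and 289 against 241 and 94.0. The part of these transcripts in the ratios of the 5 genes was not tested.

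In the first dividing cluster the log2 ratios were -0.07 for Mpo, -0.15 for Elane, 0.34 for Prtn3, 0.62 for Ctsg and -0.02 for Ms4a3, and none passed 1, as 0.824% of 3155 genes did. In the second dividing cluster Prtn3 was at 0.61 (0.41 to 0.81) and Ms4a3 at -0.33 (-0.49 to -0.16). Its 3 finer clusters differed, with Prtn3 at -0.39, 2.06 and 1.99. In dividing monocyte-like cells the 5 ratios lay between -0.36 (Elane) and 0.27 (Prtn3), and 0.408% of 6862 genes passed 1 in either direction. The finer clusters differed here too. In the one led by Fn1 and Cd86, with 101 GA and 41 control cells, Mpo was at 2.06 and Elane at 1.40. Prtn3 and Ctsg were at 1.36 each there, and Ms4a3 at 4.22 (1.69 to 9.54) from 1 control UMI. The share of all genes past 1 in that cluster is not given here. In the one led by Klf4 and Irf8 the 5 ratios lay between -0.20 (Elane) and 0.40 (Prtn3). In monocyte-like cells Prtn3 was at 1.40 (1.23 to 1.58), where 0.557% of 6281 genes were at 1 or more, and Elane and Ctsg were at 0.74. Mpo was at 2.07 (1.11 to 3.19) from 10 control UMIs and Ms4a3 at 2.29 (0.23 to 5.45) from 2. All 5 were above 0 there, as were 51.1% of the 6281 genes. Mesenchymal-like cells held Prtn3 at 5.81 and 3.02 CPM against 217 and 82.2 in monocyte-like cells. They held Mpo at 5.50 and 2.50 CPM against 10.7 and 2.55, and Ms4a3 at 0.656 and 0.232 against 2.50 and 0.510. The control intervals of Mpo and Ms4a3 overlapped between these classes, so no expression is read from their control levels. Over the pooled dividing clusters the median over the 5 genes was 0.17 and went from -0.52 without batch correction of the clusters to 0.96 at a coarser clustering.

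Other genes that make or fill the granule were examined by class, as counts with no test. Of 10 genes of protease and peroxidase maturation, 6 had their highest level in promyelocyte-like cells, among them Calr and Canx, chaperones of myeloperoxidase folding, and Alas1 and Cpox of haem synthesis. Of 14 other azurophil contents, such as lysozyme and lysosomal hydrolases, 1 did: Prss57, which encodes another serine protease of neutrophils. Of 12 transcription factors of granule genes, Gfi1 and Myb did, and of 12 specific and gelatinase granule genes none did. Of the 8 neighbours of the 5 genes, Cfd and Lpo were highest there, Cfd from 4 UMIs in GA and 2 in control and Lpo from 3 and 0.

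Between GA and control promyelocyte-like cells the lists had different medians. Among the 10 maturation genes 6 were higher in GA and 2 lower by their counting intervals, none past 1, with a median log2 ratio of 0.37 against 0.12 for all genes. Of all 6314 tested genes, 66.6% had a ratio above 0, with no interval rule applied. The share of all genes called by intervals is not given here, so the counts by list are a description only. Ctsc, the cathepsin C that activates the proteases, was at 0.80 (96.2 CPM in GA, 55.2 in control), Calr at 0.73 (1844 and 1109) and the chaperone Hspa5 at 0.45. Lower in GA were Alas1 at -0.52 and Srgn, the proteoglycan serglycin that binds granule proteases, at -0.51. Of 12 other azurophil contents with at least 20 UMIs, 7 were lower and 1 higher, with a median of -0.41. Cd63, a granule membrane protein, was at -0.80. The transcription factors Cebpe at -0.75, Gfi1 at -0.73 and Cebpd at -0.73 were lower in GA, and Irf8, a factor of the monocyte side, was at 0.63. In the Fkbp11 cluster, however, Irf8 was lower in GA, at 222 CPM against 346 in control. Klf4 was at 1.83, from 29.1 and 8.20 CPM, while mesenchymal-like cells held it at 1090 and 905. The specific granule genes Fcnb at -2.17 and Camp at -2.10 were lower in GA, whereas Ltf was at 1.82, Mmp9 at 2.44 and Mmp8 at 3.33 (1.44 to 6.40), Mmp9 and Mmp8 from 4 and 2 control UMIs. The GA levels of those 3, 24.3, 9.36 and 8.68 CPM, lay below the 39.8, 15.8 and 9.27 CPM of mesenchymal-like cells, so no expression is read from them. The source of their UMIs was not tested. Of 5 protease inhibitors with at least 20 UMIs, Serpinb1a, which inhibits elastase, proteinase 3 and cathepsin G, was at -0.64, Slpi at -0.19, Serpinb6a at -0.26 (-0.83 to 0.34), Cstb, a cysteine protease inhibitor, at 0.56 and Serpina3g at 1.90 (0.27 to 4.22) from 3 control UMIs. Serpina3g stood at 4.82 CPM in GA, near the 4.86 of mesenchymal-like cells. The 10 cell cycle genes had a median of 0.13, with none past 1.

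The likeness of other genes to each of the 5 was measured as Pearson's r of log2(CPM + 1) over 90 points, 46 clusters in the 2 libraries, which share library, depth and free RNA. Among the 5 genes r ran from 0.79 (Mpo with Ms4a3) to 0.93 (Mpo with Ctsg), and Elane with Prtn3 had 0.91. Outside them, Krt18 and Oosp1 were nearest to Mpo, at 0.75 each, and to Ctsg, at 0.75 and 0.77. Glt1d1 was nearest to Elane at 0.77, Plppr3 and Kcnk12 to Prtn3 at 0.79 each, and Prss57 to Ms4a3 at 0.77. Plppr3 overlaps Prtn3 on the other strand, and reads of the pair may not be told apart.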

How the data were processed

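The authors deposited UMI counts per gene and cell from 10x libraries; the matrix headers name Cell Ranger 7.0.1, and the submitters' notes name mm10. The 5 genes and all gene lists were chosen with earlier results of these data known. Cells with 500 to 140000 UMIs, 200 to 9500 genes and at most 15% mitochondrial UMIs were kept with the limits of the study's methods. Scrublet (scanpy 1.11.5) called 0 and 32 doublets, so the highest scores, 0.8% per 1000 barcodes, were removed: 660 GA and 538 control barcodes within the limits. Pearson residuals of 2000 variable genes, without the 5 genes, other azurophil contents and neighbour genes, gave 50 components, which were corrected with Harmony (written in NumPy 2.4.6). Leiden (leidenalg 0.10.2) at resolution 1 clustered 15 neighbours. A name needed 3 of its markers in at least 10% of cells at 2-fold over other cells; these thresholds, and the marker score of 0.5 that placed clusters in the lineage, were set after the data were seen. The genes named with values were the 5, in each list the 3 highest and 3 lowest log2 ratios at 20 or more UMIs, and the 3 genes most alike. Ratios compare summed counts, the scripts were tested on simulated data (naming and interval coverage), and with 1 library per condition no test was run. Protein sequences were not used here.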

Additional observations from a re-analysis of the deposited data

Results flagged for a closer look

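The ratio of GA to control CPM had opposite signs in early progenitor-like and promyelocyte-like cells for each of the 5 genes. The log2 ratios were 1.50 and -0.18 for Mpo, 4.20 and -0.86 for Elane, 2.07 and -0.18 for Prtn3, 1.16 and -0.12 for Ctsg, and 1.70 and -0.38 for Ms4a3, early progenitor-like first. They were singled out because the 2 stages of 1 library pair moved in opposite directions. In promyelocyte-like cells the sign turned under other processing for Mpo (up to 0.037), Prtn3 (up to 0.21) and Ctsg (up to 0.41). By the median UMI number per promyelocyte-like cell, Elane alone was lower in GA. Among early progenitor-like cells, Ms4a3 went down to 0.065 when thinned, and in the Dntt cluster Mpo and Ctsg had nearly the same CPM in both libraries. The difference was not tested, since each condition is 1 library.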

How the results depend on the processing

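No paired analysis was possible because each condition is 1 library and the labels give no replicate numbers. Depth limits the early progenitor-like values: control had 53 cells, and the ratio of Elane there has no value after thinning or without the 5 cells with most UMIs, since control then held none.

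Median log2 ratio over the 5 genes. In promyelocyte-like cells it was -0.18 as reported, -0.21 without Harmony, 0.037 with the granule genes among the variable genes, -0.13 at resolution 0.5 and at resolution 2, 0.0035 with doublets kept, -0.12 at a mitochondrial limit of 10%, 0.016 with stages set by the marker score of each cell, -0.30 relative to the median gene and -0.24 thinned to 2000 UMIs. Chosen after seeing the data, the Vcam1 cluster alone gave -0.013 and the Fkbp11 cluster -0.087. Over both dividing clusters it was 0.17 as reported and, in the same order up to the marker score, -0.52, 0.041, 0.96 and 0.87, 0.68, 0.28 and 0.45. Leaving out the 5 cells with most UMIs of the gene gave 0.40 there, 2.60 in early progenitor-like cells (1.70 as reported), 0.26 in dividing monocyte-like cells (0.02) and 2.14 over all cells (2.09). The early progenitor-like value is not a check, since the 5 cells were taken from 114 GA but only 53 control cells. Over all cells it was 2.06 with doublets kept, 2.17 relative to the median gene and 1.10 thinned.

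Share ratios. Within the reclustered lineage, chosen after seeing the data, they were 1.00 for early progenitor-like (1.94 as reported), 1.31 for promyelocyte-like (2.54), 0.917 for dividing precursor-like (1.78) and 1.12 for dividing monocyte-like cells (2.16). Dividing precursors were at 1.46 of immune-like cells. Promyelocyte-like cells were at 1.74 with the granule genes in clustering and 1.49 with doublets kept.

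Thinning leaves out cells with fewer than 2000 UMIs, so its values are over fewer cells where a class holds such cells. Thinning to 2000 UMIs moved the summed level of the 5 genes to 31675 CPM in GA and 39195 in control promyelocyte-like cells (28950 and 37725 as reported) and to 16104 and 15529 in the first dividing cluster (15671 and 14791). It set the share of cells with Ms4a3 to 85% and 93.8% in promyelocyte-like cells, 0.201% in GA mature neutrophil-like cells, and 0 in mesenchymal-like cells of both libraries. Shares with Prtn3 became 1.41% in GA mature neutrophil-like cells and 1.26% and 0.358% in mesenchymal-like cells.

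For single genes, 48 of 48 early progenitor-like values (45 of them past 1) and 35 of 35 over all cells lay above 0. In promyelocyte-like cells 45 of 60 lay below 0, with the Vcam1 and Fkbp11 clusters, chosen after seeing the data, among them. Among all tested genes as reported, 49.8% lay above 0 in early progenitor-like cells, 42.3% over all cells and 66.6% in promyelocyte-like cells. The values recount the same genes in the same libraries under overlapping settings, so these counts are a description only. Counting genes from 20 UMIs in place of 200 put 14.6% past a log2 ratio of 1 in place of 10.1%. A dividing monocyte-like class did not form in the reclustered alternatives and has no value there. The causes were not tested.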
